A study of Mus musculus with 72 samples.

Results

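Glucocorticoid receptors and 8 of their target genes were described in mouse brain after perinatal exposure to morphine or saline. They were chosen by symbol, with earlier results of these data known, and make up 10 of the 55401 gene identifiers in the count matrix. The receptors are Nr3c1 and Nr3c2. The targets are Fkbp5, Sgk1, Tsc22d3, Per1, Zbtb16, Cdkn1a, Mt1 and Mt2, which glucocorticoids are known to induce in 1 tissue or another. All 10 matched a single identifier and all 10 passed the filter on low counts in every window. All are protein coding. On GRCm38 Nr3c2 lies at chr8:76899442-77245012, Fkbp5 at chr17:28399094-28517527, Sgk1 at chr10:21882184-21999903, Tsc22d3 at chrX:140539528-140600659, Per1 at chr11:69095217-69109960, Zbtb16 at chr9:48654297-48836222, Cdkn1a at chr17:29090976-29100727, Mt1 at chr8:94179082-94180327 and Mt2 at chr8:94172664-94173568 (GENCODE M21), and Nr3c1 lies on chromosome 18. Bulk RNA-seq had been done on the right hemisphere of C57Bl/6NTac pups (labelled C57Bl/6), with 72 libraries in 3 treatment windows. In the PND1 window an osmotic minipump delivered morphine at 10 mg/kg/day or saline, so that exposure was in utero only, and pups were taken 6 h after they were found (4 morphine libraries labelled female, 6 morphine male, 7 saline female, 7 saline male). In the PND14 window pups received morphine at 10 mg/kg or saline by injection, 2 doses a day, after birth only. In the 3-Tri window the pump and the injections followed each other. PND14 and 3-Tri pups were taken 6 h after the last injection, with 6 libraries per drug and sex label. By the paper, dosing ended at PND14 in both windows, so the 3-Tri pups matched the PND14 pups in age. No source used here names the litters, so the p-values measure the spread between these libraries, and PND14 and 3-Tri libraries carry an ID number in their names (2 numbers per drug and window, with 6 libraries each at PND14 and with 7 and 5 in 3-Tri) that never spans both drugs. The dissection is described as right hemisphere in one source and as cortex in another, which also names the postnatal cohort PND15 in place of PND14.

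Glucocorticoids act through the glucocorticoid receptor, Nr3c1, and, at lower hormone levels, the mineralocorticoid receptor, Nr3c2. Both are held in the cytoplasm by Hsp90 and its co-chaperones, and move to the nucleus on binding hormone, where they act on glucocorticoid response elements near target genes. Fkbp5, a co-chaperone that lowers the receptor's affinity for hormone, is itself induced by the receptor, which closes a short feedback loop. Rodent pups pass through a stress-hyporesponsive period in the first days after birth, when circulating corticosterone is low.

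The promoters of Sgk1, Mt1 and Mt2 are shown because the results on covariance below turn on these genes, and because they differ in the elements they hold. Windows of 250 bases before the start site, from RefSeq on GRCm38.p6, were matched for 8 of the 10 genes (17 windows, since several genes have more than 1 start); none was matched for Nr3c1 and Zbtb16. Both strands were searched for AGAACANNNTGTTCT (a whole glucocorticoid response element), its repeat unit TGTTCT, the metal response element cores TGCGCNC and TGCACNC, the E-box CACGTG and the cyclic AMP response element TGACGTCA. Sgk1 was the only one of these genes with the whole glucocorticoid element, 189 to 175 bases before 1 of its 6 start sites, at chr10:21993640-21993889 on the plus strand. It is printed in capitals here:
Sgk1: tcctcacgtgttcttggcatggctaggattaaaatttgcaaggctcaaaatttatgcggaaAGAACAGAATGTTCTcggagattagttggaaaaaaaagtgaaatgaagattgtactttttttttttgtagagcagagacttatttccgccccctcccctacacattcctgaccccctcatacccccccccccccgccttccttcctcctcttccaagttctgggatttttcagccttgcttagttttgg
That element stood in 3 of all 32851 windows (0.00913%), and no match in the other windows says only that these letters were not within 250 bases of the start. The repeat unit, which every whole element contains on both strands, stood in windows of Sgk1 and Tsc22d3 and in 16.1% of all windows. The metallothionein genes lie side by side, Mt2 at chr8:94172368-94172617 and Mt1 at chr8:94178839-94179088 (plus strand for both windows), with the metal response element cores in capitals:
Mt2: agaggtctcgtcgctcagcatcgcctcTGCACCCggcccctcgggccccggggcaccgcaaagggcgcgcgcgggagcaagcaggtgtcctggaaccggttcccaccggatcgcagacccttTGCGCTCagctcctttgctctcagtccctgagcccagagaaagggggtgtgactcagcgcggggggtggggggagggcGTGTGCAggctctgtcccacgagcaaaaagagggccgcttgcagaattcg
Mt1: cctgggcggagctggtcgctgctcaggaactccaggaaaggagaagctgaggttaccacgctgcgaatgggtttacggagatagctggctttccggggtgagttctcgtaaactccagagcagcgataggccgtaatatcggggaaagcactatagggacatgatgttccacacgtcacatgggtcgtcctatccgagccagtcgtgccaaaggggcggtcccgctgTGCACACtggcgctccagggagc
The Mt2 window held 3 cores and the Mt1 window 1. These counts hold only for the 250 bases before the start used for each gene, and bases after it were not searched. The core TGCGCNC stood in 12.5% of all windows and TGCACNC in 10.4%, and Nr3c2 and Per1 also held the former. The E-box stood in windows of Fkbp5, Per1 and Sgk1 and in 6.02% of all windows, and in Sgk1 it overlapped a repeat unit. The cyclic AMP response element stood in no window of these genes and in 1.55% of all windows.

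Depth ranged from 20742862 to 27333125 counts per library at PND1, from 4407544 to 21404819 at PND14 and from 3113919 to 19938980 in 3-Tri. The shallowest library of each later window, PND14 morphine female replicate 4 and 3-Tri saline male replicate 1, hold the lowest count of each of the 10 genes in their window, and are called the 2 shallow libraries below. The smallest count was 21 reads of Mt2 (95% Poisson interval 13 to 32.1, counting error only). In 16 of 72 libraries the level of Xist or Ddx3y went against the sex label: 4 of 24 at PND1, 0 of 24 at PND14 and 12 of 24 in 3-Tri (8 of them morphine). The text therefore writes labelled male and labelled female, and results are given without these libraries wherever that changed a call among the 10 genes. Each of the 8 neuron marker genes searched was detected in every window, and 17 of 17 Hox genes of hindbrain and spinal cord were under 1 CPM (CPM, the counts-per-million scale) at PND14 and in 3-Tri. At PND1 these 17 genes summed to 0.0397 to 62.2 CPM in saline libraries and to 0.84 to 118 in morphine libraries, a wide range within each drug. The part this played in the PND1 results and in the age comparison was not tested.

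The largest differences lay between the windows. Both receptors stood several-fold higher at PND14 than at PND1, while Fkbp5 and Cdkn1a stood lower, and the 3-Tri libraries lay at the PND14 level. Levels are given as CPM, scaled by the TMM method over all 72 libraries. Nr3c1 in saline libraries lay at 20.9 to 27.3 CPM at PND1 (median 24.7, n = 14), at 108 to 125 at PND14 (median 113, n = 12) and at 108 to 127 in 3-Tri (median 114, n = 12). The PND1 range ended far below the start of both others, with a log2 fold change (log2FC) of 2.29 ± 0.033 (SE) from PND1 to PND14, or 4.88-fold. Nr3c2 rose from 12.6 to 17.6 CPM (median 14.9) at PND1 to 44.9 to 55.3 (median 50.6) at PND14, a log2FC of 1.79 ± 0.044 or 3.47-fold. In 3-Tri saline it lay at 35.1 to 55.5 (median 50.1), the lowest value being the shallow library. Neither receptor overlapped between PND1 and the later windows in any drug or sex label.

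**Figure D1:**
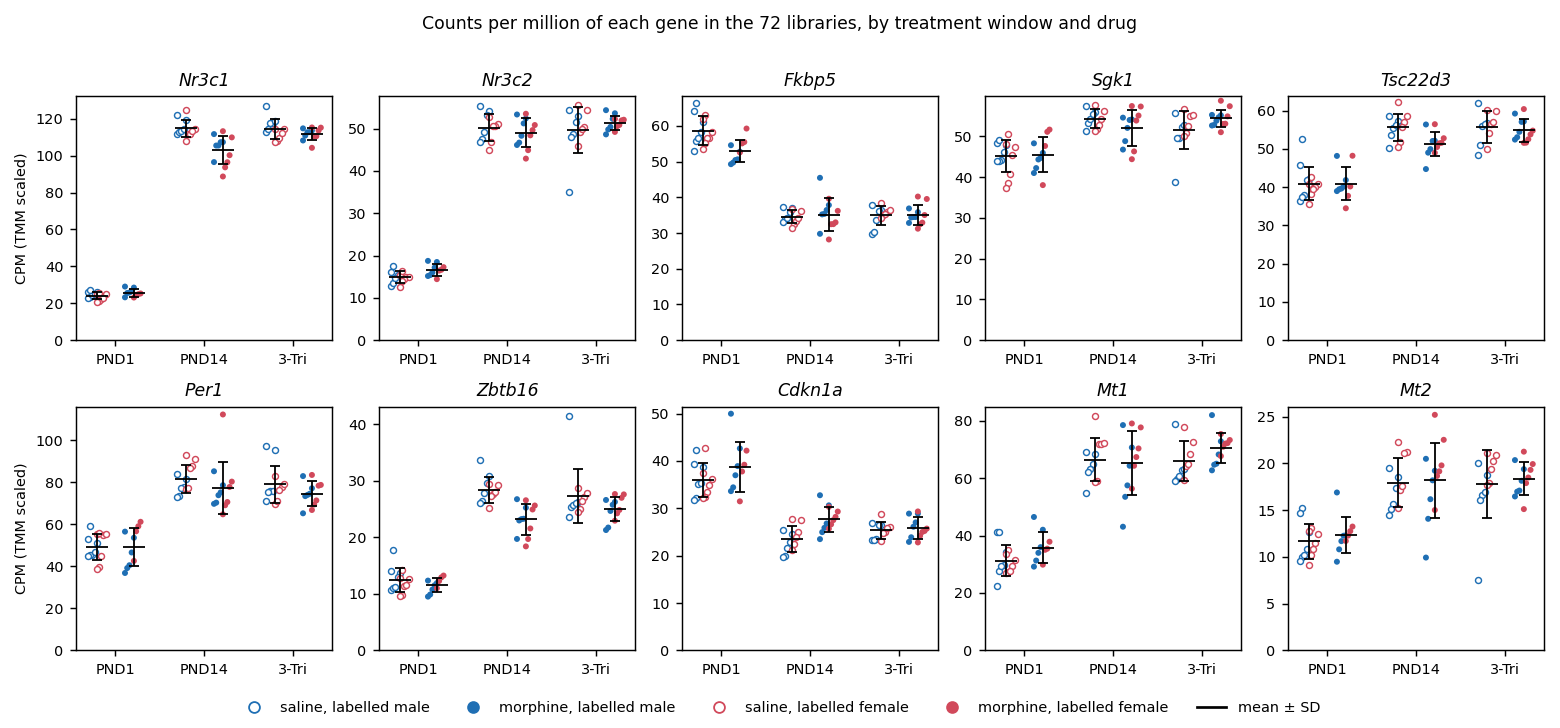
CPM (counts-per-million, TMM scaled, linear axis from 0) of the 10 genes, 1 panel per gene, with 1 point per library by treatment window and drug and bars for the mean and SD. Nr3c1 saline libraries sit between 20.9 and 27.3 at PND1 and between 108 and 125 at PND14, while Fkbp5 saline libraries fall from 53 to 66.4 at PND1 to 31.4 to 37.2 at PND14.

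All 10 genes differed between saline PND14 and saline PND1 by edgeR's quasi-likelihood test with Benjamini-Hochberg adjustment (adjusted p from 4.54e-62 for Nr3c1 to 3.21e-10 for Sgk1). That count is close to the background, since 84.9% of the 22010 genes tested passed. Among the targets, Zbtb16, a zinc-finger transcription factor, rose from 9.67 to 17.7 CPM (median 12.1) to 25.3 to 33.7 (median 27.9), a log2FC of 1.24 ± 0.066. Mt1, a metal-binding metallothionein, rose from 22.4 to 41.3 CPM (median 29.6) to 54.7 to 81.7 (median 66.7), a log2FC of 1.13 ± 0.074. For both the PND1 and PND14 saline ranges did not meet. Per1, a core repressor of the circadian clock that is also an immediate target of the receptor, went from 39.0 to 59.1 CPM (median 48.9) to 72.9 to 93 (median 79.8), again with no overlap and a log2FC of 0.76 ± 0.066. Mt2, from 9.17 to 15.3 CPM (median 11.2) to 14.5 to 22.3 (median 17.5), had a log2FC of 0.67 ± 0.085 and ranges that overlapped slightly. Tsc22d3, which encodes the anti-inflammatory leucine zipper protein GILZ, moved from 35.6 to 52.5 CPM (median 40.5) to 50.2 to 62.3 (median 55.9), a log2FC of 0.48 ± 0.045 with a slight overlap. The smallest rise was that of Sgk1, a kinase that acts on ion transport, from 37.3 to 50.6 CPM (median 45.8) to 51.3 to 57.7 (median 54.2), with a log2FC of 0.30 ± 0.041 and no overlap.

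The other 2 targets went the other way. Fkbp5 fell from 53 to 66.4 CPM (median 57.4) at PND1 to 31.4 to 37.2 (median 34.1) at PND14, a log2FC of -0.72 ± 0.043. Cdkn1a, which encodes the cell-cycle inhibitor p21 and is also induced by p53, fell from 31.8 to 42.7 CPM (median 35.3) to 19.8 to 27.9 (median 23.5), a log2FC of -0.58 ± 0.057. For both genes every PND1 saline library lay above every PND14 saline library. Leaving out each of the 26 saline libraries in turn kept each of the 10 calls. Window, age, the route of saline and any batch cannot be told apart in this comparison. Fewer cells of a type and less RNA per cell cannot be told apart in bulk tissue either, and at PND14 the 8 oligodendrocyte markers searched were all higher than at PND1 (median log2FC 5.21). Between saline 3-Tri and saline PND14, 0 of 10 genes were called by edgeR (0% of all genes), 0 had an unadjusted p under 0.05 (3.28%) and 0 were called by DESeq2, with log2FC from -0.10 for Zbtb16 to 0.10 for Cdkn1a.

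Per kilobase of exon, the scale on which different genes can be compared, the metallothioneins led in all windows. At PND1 the mean level per kilobase was 26.6 ± 4.59 CPM (SD, n = 24) for Mt1 and 20.3 ± 3.22 for Mt2, followed by Cdkn1a at 10.5, Tsc22d3 at 9.42, Sgk1 at 9.24 and Per1 at 8.76. Fkbp5 stood at 5.94, and the receptors came near the end with Nr3c1 at 3.22 and Nr3c2 at 2.41, above Zbtb16 at 2.28. Neighbours in that order overlapped in range except Mt2 with Cdkn1a and Fkbp5 with Nr3c1. At PND14 Nr3c1 had moved to the third place at 14.2 ± 1.13, next to Per1 at 14.1, and Fkbp5 to the last at 3.69. Only Mt2 with Nr3c1 and Sgk1 with Nr3c2 were separated from their neighbour there. In 3-Tri the order was that of PND14 for all 10 genes, and the ranges were separated only between Mt1 at 54.8 and Mt2 at 30.7.

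Mt2 carries a limit of its own. Of its 588 exon bases, 432 lie inside exons of the antisense gene Gm45774, and the 2 genes had nearly the same counts in each library, equal in 8 of 72 and never more than 14 apart (ratio 94.9% to 105%). Counting with strand is not stated in the sources used here, so reads of Mt2 and Gm45774 cannot be told apart, and values of Mt2 hold for both. The printed Mt2 window also lies within an exon of Gm45774. Nr3c2 overlaps Gm10649 on the other strand, whose counts came to 17.4% of those of Nr3c2, and Cdkn1a overlaps AC167363.2 at 5.44%.

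At PND1 morphine libraries had less Fkbp5 than saline libraries, and edgeR called no other gene of the 10 in this window. In libraries labelled male, Fkbp5 lay at 53 to 66.4 CPM in saline (median 58.2, n = 7) and at 49.3 to 54.6 in morphine (median 50.5, n = 6). Of the 6 morphine libraries, 5 lay below every saline library and the other overlapped them, with a log2FC of -0.21 ± 0.051 (edgeR adjusted p = 0.00676). That was 1 of 10 genes, against 14.4% of the 21714 genes tested, so the share is no higher than the background. In libraries labelled female, saline values were 53.6 to 63.0 (median 56.7, n = 7) and the 4 morphine values were 55.1, 59.3, 52.6 and 55.5, of which only 1 lay below all saline libraries. Here the log2FC was -0.06 ± 0.057 and 0 of 10 genes were called (0% of all genes), with 0 at an unadjusted p under 0.05 (11.7%) and 0 by DESeq2. The difference between the sex labels in the response of Fkbp5 was -0.15 ± 0.076 with an edgeR adjusted p of 0.871, so the labels were not shown to differ.

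With the sex labels joined, Fkbp5 was lower after morphine by a log2FC of -0.13 ± 0.038 (edgeR adjusted p = 0.0164, 1 of 10 genes against 16.8% of all genes), with medians of 57.4 CPM in saline and 52.7 in morphine and 6 of 10 morphine libraries below all 14 saline libraries. Without PND1 morphine female replicate 3 the adjusted p became 0.0503. In libraries labelled male the call was kept without any single library (adjusted p up to 0.021), without the 4 libraries that went against their sex label (adjusted p = 0.00600) and after a correction for GC content and length (adjusted p = 0.0344). Joined, the same correction without those 4 libraries gave 0.0873.

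The receptors at PND1 had estimates above 0 that edgeR did not call. Nr3c2 lay at 12.6 to 17.6 CPM in saline (median 14.9) and at 14.4 to 18.7 in morphine (median 16.5), with broad overlap, a log2FC of 0.15 ± 0.055 and an edgeR adjusted p of 0.0543. DESeq2 called Nr3c2 beside Fkbp5 with the sex labels joined (DESeq2 adjusted p = 0.0415), so the call depends on the tool. Nr3c1 lay at 20.9 to 27.3 CPM in saline and at 23.1 to 29.1 in morphine (medians 24.7 and 25.4), with an adjusted p of 0.269. Mt1 lay at 22.4 to 41.3 in saline and 29.2 to 46.5 in morphine (medians 29.6 and 35.2), with an adjusted p of 0.147. The other 6 genes, Sgk1, Tsc22d3, Per1, Zbtb16, Cdkn1a and Mt2, overlapped throughout and had log2FC between -0.08 and 0.10 with the labels joined. By label some were larger and opposite, though not called. Zbtb16 had -0.24 ± 0.11 in males (edgeR adjusted p = 0.119) and 0.08 ± 0.12 in females. Per1 had -0.12 ± 0.11 in males and 0.16 ± 0.12 in females. With the labels joined, the median log2FC over the 10 genes was 0.05, beside 0.01 over all genes.

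**Figure D2:**
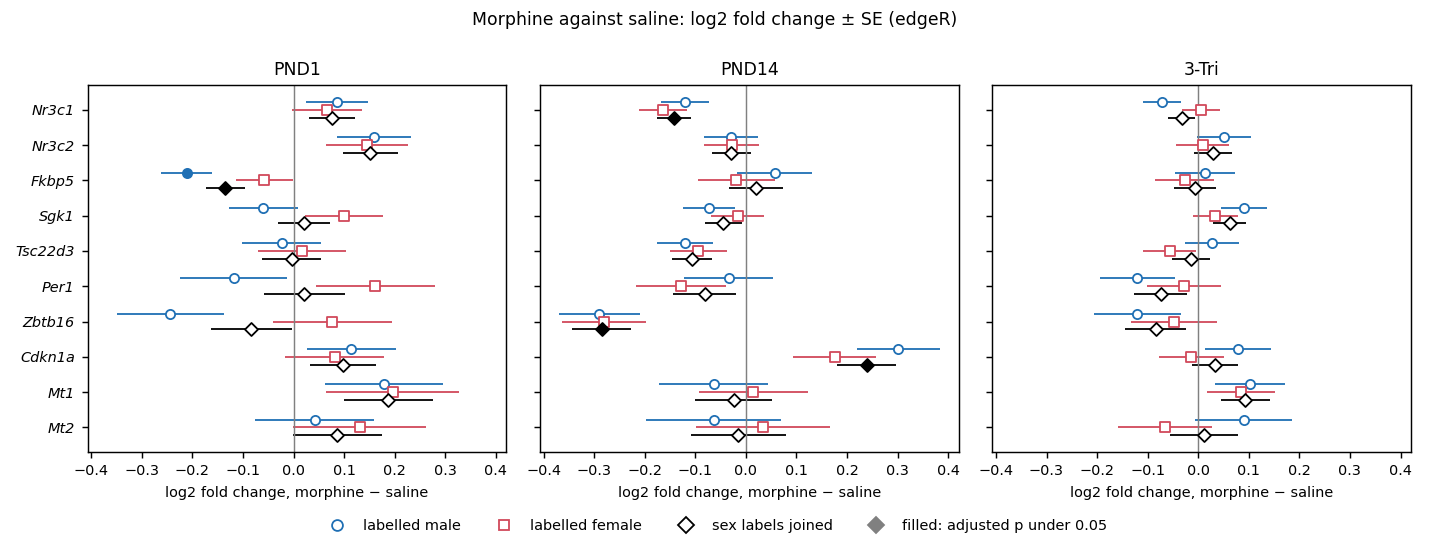
The log2 fold change of morphine against saline (edgeR estimate, bars are SE) for each gene in the 3 windows, with the sex labels joined and apart. Fkbp5 at PND1 lies at -0.13 joined, and at PND14 Zbtb16 lies at -0.29, Nr3c1 at -0.14 and Cdkn1a at 0.24, while the joined 3-Tri values lie between -0.08 and 0.09.

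At PND14 3 genes were called, and Fkbp5 was not among them. With the sex labels joined, Zbtb16 and Nr3c1 were lower and Cdkn1a was higher after morphine, 3 of 10 genes where 1.69% of 19636 genes passed. Zbtb16 lay at 25.3 to 33.7 CPM in saline (median 27.9, n = 12) and at 18.4 to 26.8 in morphine (median 23.3, n = 12). Of the 12 morphine libraries, 8 lay below all saline libraries, and the log2FC was -0.29 ± 0.058 (edgeR adjusted p = 0.0138). Cdkn1a lay at 19.8 to 27.9 CPM in saline (median 23.5) and at 23.5 to 32.8 in morphine (median 27.2), so that 5 of 12 morphine libraries stood above all saline libraries. Its log2FC was 0.24 ± 0.058 (edgeR adjusted p = 0.0330). Nr3c1, at 108 to 125 CPM in saline (median 113) and 88.7 to 113 in morphine (median 106), had 9 of 12 morphine libraries below all saline libraries and a log2FC of -0.14 ± 0.034 (edgeR adjusted p = 0.0295).

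Each direction was shared by both sex labels, though no gene passed within either label alone. In libraries labelled male, Zbtb16 had medians of 28.8 CPM in saline and 23.3 in morphine and Cdkn1a had medians of 22.3 and 26.3. Nr3c1 in the same libraries lay at 112 to 122 in saline (median 114) and at 96.5 to 112 in morphine (median 106), with all 6 morphine libraries below all 6 saline libraries. This was the only one of 90 comparisons of a gene between drugs, in all windows and labels, without overlap. The share of all genes without overlap in this comparison was not counted. In libraries labelled female the medians in saline and morphine were 27.8 and 23.3 for Zbtb16, 24.5 and 27.9 for Cdkn1a and 113 and 98.4 for Nr3c1, each with overlap. By edgeR 0 of 10 genes were called in either label (0.280% of all genes in males, 0% in females), and the unadjusted p was under 0.05 for 4 and 3 of the 10, beside 9.29% and 10.5% of all genes. DESeq2 called Zbtb16 and Cdkn1a in males and none of the 10 in females.

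**Figure D3:**
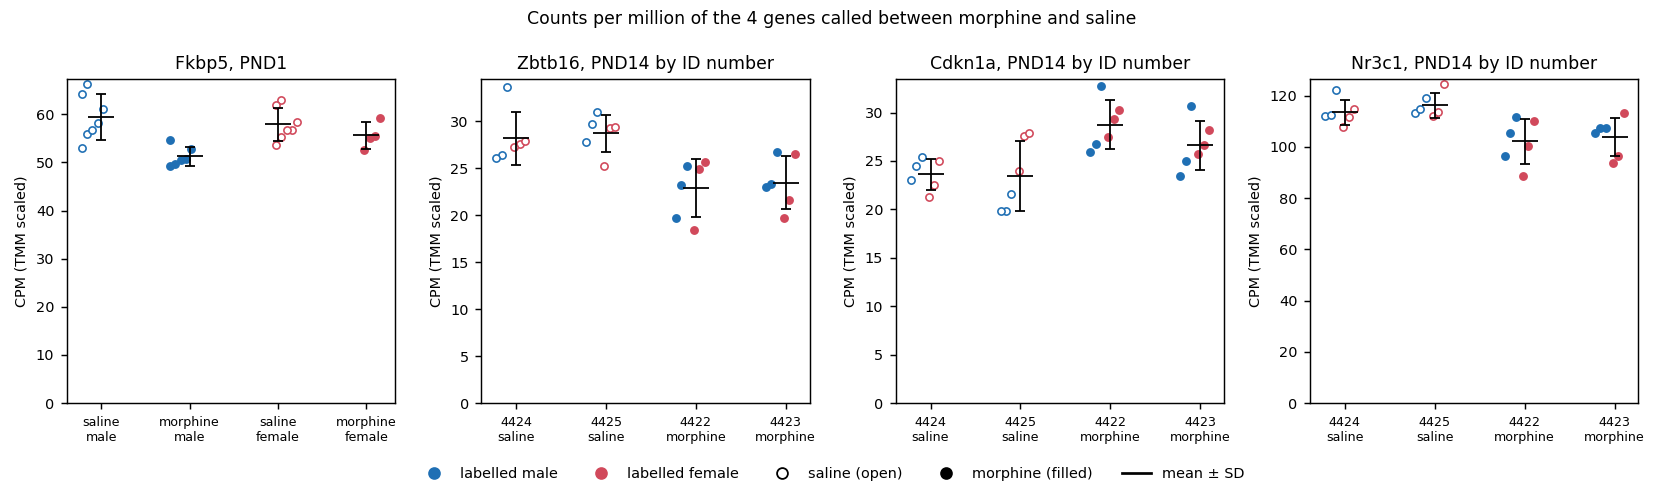
CPM (linear axis from 0, bars are mean and SD) of Fkbp5 at PND1 by drug and sex label, and of Zbtb16, Cdkn1a and Nr3c1 at PND14 by ID number, 1 point per library. At PND14 both saline ID numbers lie above both morphine ID numbers in mean Zbtb16 (28.2 and 28.7 against 22.9 and 23.5) and Nr3c1 (113 and 116 against 102 and 104) and below them in Cdkn1a (23.6 and 23.4 against 28.8 and 26.6).

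The PND14 calls depended on which libraries were kept. Each ID number belongs to 1 drug, so the number and the drug cannot be told apart within a number. Means of Zbtb16 were 22.9 ± 3.09 CPM (SD, n = 6) for number 4422 and 23.5 ± 2.77 for 4423, both morphine, and 28.2 ± 2.79 for 4424 and 28.7 ± 1.98 for 4425, both saline, so the numbers of one drug were closer to each other than to those of the other drug. Without numbers 4422, 4423, 4424 and 4425 in turn, the edgeR adjusted p of Zbtb16 was 0.0322, 0.0556, 0.116 and 0.249, that of Cdkn1a 0.239, 0.0410, 0.154 and 0.251, and that of Nr3c1 0.0729, 0.0958, 0.176 and 0.372. With counts summed per number, the sex labels were pooled and only 2 samples per drug remained. The edgeR adjusted p was then 0.0682 for Zbtb16, 0.172 for Cdkn1a and 0.192 for Nr3c1. The log2FC stayed between -0.30 and -0.27 for Zbtb16, between 0.17 (without 4422) and 0.31 (without 4423) for Cdkn1a and between -0.16 and -0.12 for Nr3c1 in these fits. Leaving out single libraries never cost Zbtb16 its call (adjusted p up to 0.0316 in 24 fits). Cdkn1a lost its call in 11 of 24 fits (adjusted p up to 0.0699): without morphine female replicate 5, morphine male replicates 2, 3 and 9, saline female replicates 4, 5 and 10, or saline male replicates 3, 7, 8 and 9. Nr3c1 lost it in 6 of 24 (adjusted p up to 0.0643): without morphine female replicate 11, morphine male replicates 3 and 9, saline female replicate 11, or saline male replicates 3 and 9.

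The other 7 genes were not called at PND14. Tsc22d3 lay at 50.2 to 62.3 CPM in saline and 44.7 to 56.4 in morphine (medians 55.9 and 51.5), with a log2FC of -0.11 ± 0.039 and an edgeR adjusted p of 0.165. Fkbp5, the gene called at PND1, lay at 31.4 to 37.2 in saline and at 28.2 to 45.5 in morphine (medians 34.1 and 35.3), a wider range around the same centre, with a log2FC of 0.02 ± 0.053. Sgk1, Per1, Nr3c2, Mt1 and Mt2 had log2FC between -0.08 and -0.02 and overlapping ranges. The highest Per1 value, 112 CPM, belongs to the shallow morphine library.

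In 3-Tri, where pups had received morphine both before and after birth, none of the 10 genes was called between the drugs. By edgeR 0 of 10 passed in males, females or both joined (0% of 19730 genes in each), 0 had an unadjusted p under 0.05 (4.98%, 2.41% and 4.88% of all genes) and DESeq2 called 0, as did edgeR without the 12 libraries that went against their label. The 3 genes called at PND14 had medians in saline and morphine of 26.2 and 25.3 CPM for Zbtb16, 25.5 and 25.5 for Cdkn1a and 114 and 113 for Nr3c1, with log2FC of -0.08 ± 0.060, 0.03 ± 0.046 and -0.03 ± 0.027. Ranges overlapped for each. With 8 of 12 morphine libraries and 4 of 12 saline libraries against their sex label here, results by sex label in this window compare the labels, not the sexes.

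Whether the response to morphine differed between windows was tested in a fit over all 12 groups. Between PND14 and PND1 the responses of both receptors differed, that of Nr3c1 by -0.22 ± 0.049 (edgeR adjusted p = 0.0014) and that of Nr3c2 by -0.18 ± 0.065 (adjusted p = 0.0484), 2 of 10 genes where 13.3% of 22010 passed. Nr3c1 was higher after morphine at PND1 by a log2FC of 0.08, which did not pass its own test, and lower at PND14 by 0.14. After the correction for GC content and length adjusted p was 0.0710 for Nr3c1 and 0.230 for Nr3c2. Nr3c2 also missed the threshold without the filter on low counts (0.0770), without the libraries at odds with their sex label (0.166) and in 27 of 48 fits that left out 1 library (up to 0.0916): PND1 morphine female replicates 1, 2 and 4, morphine male 6 and 10, saline female 1, 2, 4, 5 and 7, saline male 10, 11 and 13, and PND14 morphine female 5, 6, 10 and 11, morphine male 1, 2 and 7, saline female 4, 5, 10 and 11 and saline male 3, 8 and 9. Nr3c1 kept its call in each of the 48 such fits. For Fkbp5 the difference was 0.15 ± 0.064 with an adjusted p of 0.103, so its response was not shown to be particular to PND1. Between 3-Tri and PND1 edgeR called 0 of 10 genes (8.43% of all genes) with 2 at an unadjusted p under 0.05 (22.6% of all genes), between 3-Tri and PND14 0 of 10 (0.182%) with 3 (9.14%), and DESeq2 called none in either. Among morphine libraries, 3-Tri against PND14, edgeR called 0 of 10 (0.8%) with 1 at an unadjusted p under 0.05 (14%), Nr3c1, at a log2FC of 0.10 and an adjusted p of 0.0921, and DESeq2 called Nr3c1 alone.

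None of the 10 genes differed by sex label or in its response by sex label. With the drugs averaged, edgeR called 0 of 10 between labels at PND1 (4.73% of all genes), PND14 (0.107%) and 3-Tri (0%), with 1, 2 and 0 at an unadjusted p under 0.05 (21.9%, 4.97% and 2.31%). The largest of these estimates was that of Mt2 at PND14, -0.25 ± 0.094 in males minus females with an adjusted p of 0.947. For the difference of the drug response between labels edgeR called 0 of 10 in each window (0% of all genes in each), none had an unadjusted p under 0.05 (5.47%, 3.44% and 2.32% in PND1, PND14 and 3-Tri), and DESeq2 called 0 in each window for both questions.

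Other glucocorticoid-induced genes were counted from a list of 20, of which 19 were tested. Counts of this and the following lists stand beside 16.8% of all genes called at PND1 with labels joined, 14.4% in PND1 males, 1.69% at PND14 joined, 0% in 3-Tri and 84.9% with age. At PND1, labels joined, 0 rose and 2 fell after morphine: Ddit4, an inhibitor of mTOR signalling (log2FC -0.38 ± 0.051, edgeR adjusted p = 5.88e-05), and Rhob, a small GTPase (-0.13 ± 0.041, adjusted p = 0.0318). In libraries labelled male 3 fell, Ddit4, the MAP kinase phosphatase Dusp1 (-0.21 ± 0.065, adjusted p = 0.0301) and the glycerol-3-phosphate dehydrogenase Gpd1 (-0.33 ± 0.11, adjusted p = 0.0391). The median log2FC of the list was -0.09 beside 0.01 over all genes, and its summed level ranged from 409 to 470 CPM in saline and from 379 to 467 in morphine. At PND14 the only call was a lower Bcl6, a transcriptional repressor (-0.16 ± 0.041, adjusted p = 0.0386), and in 3-Tri there was none. From saline PND1 to saline PND14, 11 of the 19 rose and 4 fell, led by Fam107a (3.88 ± 0.099) and Klf9, a receptor-induced zinc-finger factor (3.69 ± 0.060), with a list median of 0.52 beside -0.02 over all genes.

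Of 14 receptor chaperones and coregulators, 2 rose and 2 fell at PND1 after morphine with labels joined (16.8% of all genes were called). Ptges3, the p23 co-chaperone, rose by 0.16 ± 0.031 (edgeR adjusted p = 0.00113) and Hsp90aa1, the inducible Hsp90, by 0.11 ± 0.028 (adjusted p = 0.00929). Fkbp4, the co-chaperone that favours nuclear entry of the receptor and competes with Fkbp5, fell (log2FC -0.19 ± 0.043, adjusted p = 0.00403), the direction of Fkbp5 in this window. At PND14 and in 3-Tri 0 of 14 were called. Of 10 genes of steroid metabolism and stress peptides, 0 were called between the drugs in any window with labels joined, and 7 rose and 1 fell with age (84.9% of all genes were called), led by Hsd11b1, which regenerates active glucocorticoid inside cells (3.91 ± 0.090). Of 6 metal response genes, Slc30a1, a zinc exporter induced by metal (0.23 ± 0.067, adjusted p = 0.0208), rose and Mt3, the brain metallothionein (-0.27 ± 0.074, adjusted p = 0.0153), fell at PND1, and 0 were called in the later windows.

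Markers of cell types moved with some of these results. At PND14 5 of 8 oligodendrocyte markers fell after morphine, where 1.69% of all genes were called (Mobp -0.44, Mag -0.41, Ugt8a -0.37 in log2FC, list median -0.34), none was at 0, and their summed level ranged from 4362 to 6287 CPM in saline and from 2848 to 5356 in morphine. Of 8 neuron markers 2 rose (Stmn2 0.16, Tubb3 0.14), 1 of 8 microglia markers fell (Cx3cr1 -0.13), and 0 of 8 astrocyte, 0 of 10 endothelial and 0 of 8 choroid plexus markers were called. Within the PND14 groups the correlation with the oligodendrocyte list was -0.29 for Zbtb16, -0.41 for Cdkn1a and -0.093 for Nr3c1, where over all 72 libraries it was 0.05, 0.19 and 0.15. The part of oligodendrocytes in the PND14 results was not tested. At PND1, 3 of 8 neuron markers rose and 2 fell, 2 of 8 astrocyte markers rose, and 1 of 10 endothelial (Cldn5 -0.31), 1 of 8 microglia (C1qc -0.35), 1 of 8 choroid plexus (Clic6 -0.52) and 1 of 6 erythroid genes (Hbb-bt -0.43) fell, while 0 of 15 Hox genes tested were called (median 0.38, 14 above 0). In PND1 libraries labelled male, however, 3 of the 15 rose after morphine (Hoxb8 4.09 ± 0.97, Hoxb7 3.14 ± 0.85 and Hoxc5 2.41 ± 0.73 in log2FC, edgeR adjusted p = 0.00646, 0.0147 and 0.0263). Of these, Hoxb7 and Hoxc5 averaged under 1 CPM at PND1, so their fold changes lie near the floor. All 15 lay above 0 (median 1.76) in libraries labelled male, while in those labelled female 0 were called and none lay above 0 (median -0.71). Endothelial sums ranged from 196 to 247 CPM in saline and from 177 to 217 in morphine, and choroid plexus sums from 257 to 615 and from 233 to 509. Within the PND1 groups Fkbp5 correlated at 0.17 with the endothelial list, at 0.40 with the choroid plexus list and at 0.41 with the oligodendrocyte list. It correlated at -0.47 with the neuron list and at 0.20 with the 5 Hox genes used for correlation. The part of these cells in the difference of Fkbp5 was not tested.

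The libraries of a group also varied together. Covariance was measured on the deviation of each gene's log2 CPM from the mean of its group (window, drug and sex label), so that age, drug and label are removed. The SD of these deviations was smallest for Nr3c1 (0.084) and largest for Mt1 (0.20) and Mt2 (0.26), with Sgk1, Fkbp5 and Tsc22d3 at 0.12. Of the 45 pairs of genes 31 had a Pearson correlation above 0, with a median of 0.16. Of these pairs 5 passed a permutation test within groups (100000 resamples, two-sided, Benjamini-Hochberg over 45 pairs), all of them positive, and all 5 also passed by Spearman's rho, which called 9. Many genes outside the set varied with these genes too. Of 18549 genes with a mean of at least 1 CPM, 17.8% had r over 0.3 with Mt2 and 17.2% with Sgk1. That share was 9.97% for Mt1, 8.08% for Tsc22d3 and 7.08% for Fkbp5.

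Mt1 and Mt2 formed the closest pair, with r = 0.704 and rho = 0.733 over 72 libraries (permutation p = 1e-05 for both, the smallest that the resamples can give, adjusted p = 0.00045). Within the PND1, PND14 and 3-Tri windows the correlation was 0.872, 0.817 and 0.418, the last of which became 0.572 without the shallow library. Without the 2 libraries farthest from the median r was 0.654, so the relation did not rest on them. Among 18549 genes with a mean of at least 1 CPM, Mt1 had rank 4 in likeness to Mt2.

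Tsc22d3 followed Mt1 with r = 0.614 and rho = 0.614 (permutation p = 2e-05 for both, adjusted p = 0.00045), at 0.719 in PND1, 0.616 in PND14 and 0.372 in 3-Tri, and 0.582 without the 2 farthest libraries. The other 3 pairs were looser. Among the 18549 genes, Fkbp5 had rank 967 and Sgk1 rank 1285 in likeness to Mt2, and Sgk1 had rank 1096 in likeness to Mt1. In the other direction, Mt2 had rank 90 in likeness to Fkbp5. In likeness to Sgk1, Mt2 had rank 919 and Mt1 rank 1935. Fkbp5 and Mt2 had r = 0.451 and rho = 0.476 (permutation p = 0.00158 and 0.00016, adjusted p = 0.0205 and 0.0024), with 0.481, 0.366 and 0.544 in PND1, PND14 and 3-Tri, but 0.358 with an adjusted p of 0.0640 without the 2 shallow libraries. Sgk1 and Mt1 had r = 0.358 and rho = 0.395 (permutation p = 0.00182 and 0.00141, adjusted p = 0.0205 and 0.0127), and r = 0.336 with an adjusted p of 0.0651 without the 2 farthest libraries. Sgk1 and Mt2 had r = 0.424 and rho = 0.354 (permutation p = 0.00443 and 0.00455, adjusted p = 0.0399 and 0.0341), and this pair rested on few libraries, since r was 0.812 in 3-Tri and 0.359 there without the shallow library, and 0.267 (adjusted p = 0.187) without the 2 farthest. Without the libraries at odds with their sex label the pair had r = 0.455 and an adjusted p of 0.0616 by the permutation test. In the promoter windows above, Sgk1 held the whole glucocorticoid element and the metallothioneins the metal response cores, and none of these windows held both.

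**Figure D4:**
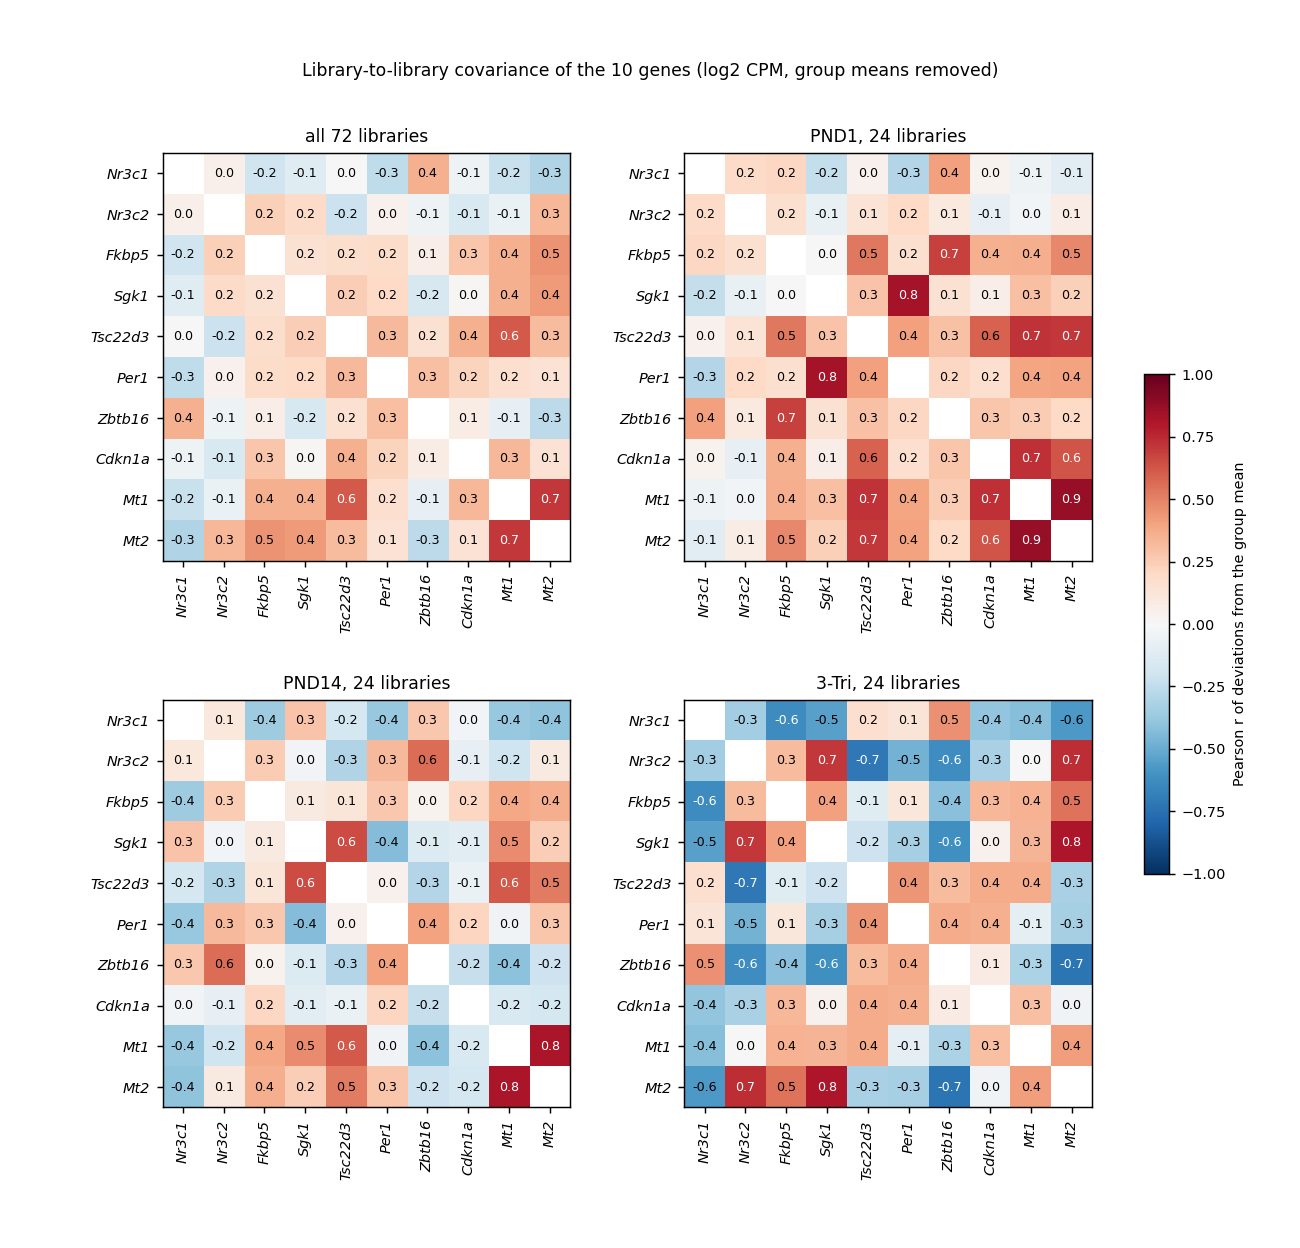
Pearson correlation (colour from -1 to 1, value in each cell) of the deviations of log2 CPM from the group mean, for all pairs of the 10 genes, over 72 libraries and within each window of 24 libraries. Mt1 with Mt2 is positive in every panel (0.872 at PND1, 0.817 at PND14, 0.418 in 3-Tri), while Sgk1 with Per1 is 0.836 at PND1 and -0.43 and -0.33 in the later windows.

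The pairs that passed within a single window differed between windows. Some that passed at PND1 only were still positive later. At PND14 Tsc22d3 had r = 0.616 with Mt1 and 0.523 with Mt2, and neither pair passed there. At PND1 8 pairs passed within the window (permutation test, adjusted over 45 pairs): Mt1, Mt2, Tsc22d3 and Cdkn1a in 6 of 6 combinations, Sgk1 with Per1 (r = 0.836, adjusted p = 0.0009) and Fkbp5 with Zbtb16 (r = 0.684). At PND14 Mt1 with Mt2 and Sgk1 with Tsc22d3 (r = 0.649) passed, and in 3-Tri only Nr3c2 with Tsc22d3, which was negative (r = -0.712). Sgk1 with Per1 went to -0.43 at PND14 and -0.33 in 3-Tri, and to -0.20 and 0.014 without the 1 shallow library of each window, so much of the negative size rested on those 2 libraries. The difference of a correlation between windows was not tested. When deviations were taken from the mean of ID number and sex label at PND14 and in 3-Tri, only Mt1 with Mt2 passed (r = 0.652, adjusted p = 0.0198, n = 48).

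Neither receptor had a pair that passed over all 72 libraries by Pearson's r or by rho, and nor did the targets Per1 and Zbtb16. Cdkn1a had none by Pearson's r. By rho it passed with Tsc22d3 (0.338) and with Mt1 (0.342), at adjusted p of 0.0462 and 0.0480 in the permutation test. Without the 2 shallow libraries Sgk1 with Per1 also passed by Pearson's r (0.473). For Nr3c1 the correlation with Fkbp5 was -0.20 (0.21 at PND1, -0.36 at PND14, -0.63 in 3-Tri), with Mt2 -0.30 (adjusted p = 0.0609) and with Zbtb16 0.36 (adjusted p = 0.0569). Nr3c1 and Nr3c2 had r = 0.047. With the mean of the other glucocorticoid-induced genes, the correlation was 0.72 for Mt2, 0.59 for Mt1, 0.58 for Fkbp5, 0.48 for Sgk1, 0.44 for Tsc22d3 and 0.41 for Nr3c2, and 0.32 for Per1, 0.25 for Cdkn1a, 0.05 for Zbtb16 and -0.19 for Nr3c1. Mt2, Mt1, Fkbp5, Sgk1 and Nr3c2 stayed above 0 in each window. Zbtb16 had 0.59 at PND1, 0.12 at PND14 and -0.64 in 3-Tri. In the same order Per1 had 0.55, 0.41 and -0.16, and Tsc22d3 had 0.76, 0.42 and -0.08. Lists of cell type markers gave values of like size for some of these genes. With oligodendrocyte markers Mt1 had 0.53, Tsc22d3 0.48, Mt2 0.30, Fkbp5 0.17, Sgk1 -0.02 and Nr3c2 -0.13 over 72 libraries. With endothelial markers Mt1 had 0.49, Sgk1 0.47, Tsc22d3 0.38, Mt2 0.33, Fkbp5 0.05 and Nr3c2 -0.08. These are descriptions over 72 libraries that share depth and dissection. With log2 depth Sgk1 had 0.43, Nr3c2 0.36, Per1 -0.34 and Zbtb16 -0.31. With the 5 Hox genes used for correlation Cdkn1a had 0.48 and Mt1 0.39 over 72 libraries, and 0.65 and 0.52 within PND1. At PND14 and in 3-Tri all 17 Hox genes searched were under 1 CPM. Mt2 had 0.25 with log2 depth over 72 libraries but 0.84 within 3-Tri, where its correlation with the glucocorticoid-induced list was 0.89.

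**Figure D5:**
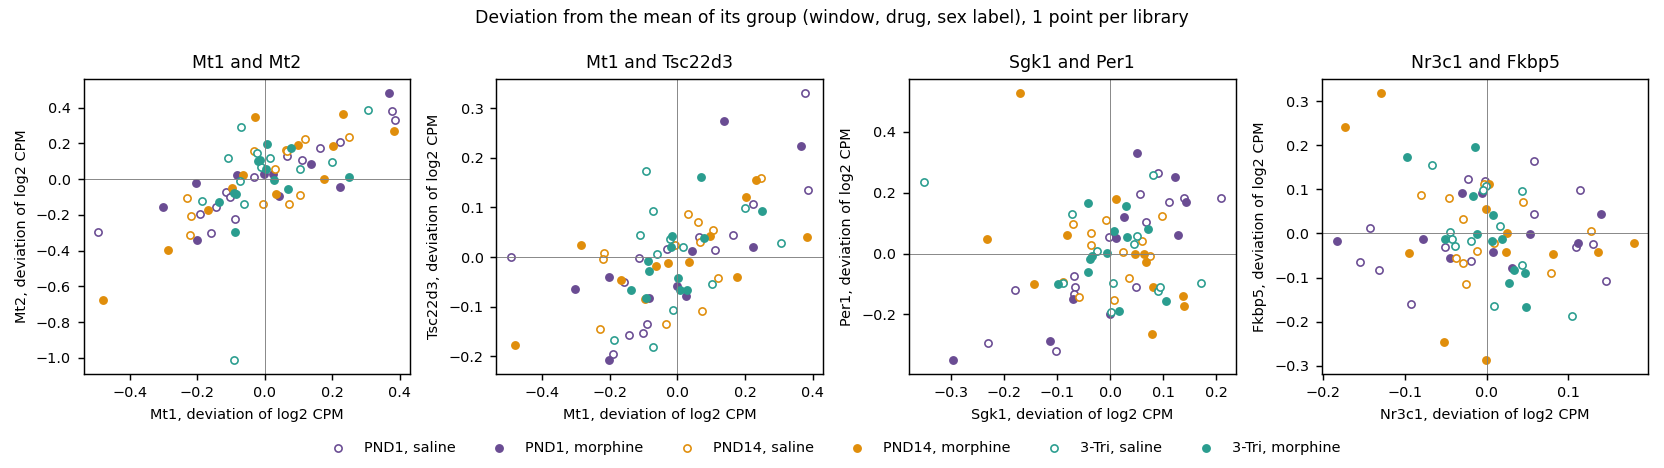
Deviation of log2 CPM from the group mean for 4 pairs of genes, 1 point per library, coloured by window, with saline open and morphine filled. Mt1 with Mt2 and Mt1 with Tsc22d3 rise together (r = 0.704 and 0.614), Sgk1 with Per1 rises at PND1 (0.836) but not later, and Nr3c1 with Fkbp5 shows no common slope (-0.20).

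The genes most like each of the 10 in these deviations were named by the highest correlation among 18549 genes over 72 libraries, as a description. Fkbp5 was closest to Igfbp3 (r = 0.748), which encodes a binding protein for insulin-like growth factors, then to Map3k6 (0.587), a kinase gene from the list of glucocorticoid-induced genes, and Smox (0.572), the spermine oxidase. Igfbp3 lay further above the next gene than the nearest gene of any other member did, apart from Mt2 with its overlapping Gm45774 (0.998). Mt1 was closest to the glutathione transferase Gstm1 (0.739), Ccdc152 (0.720) and Aldoc (0.708), an aldolase of astrocytes. Mt2, after Gm45774, was closest to Mrpl40 (0.716) and Slc7a6os (0.705). Tsc22d3 was closest to Itm2b (0.626), Nap1l5 (0.623) and Cd81 (0.618), and Cdkn1a to Cbln1 (0.620), the apolipoprotein Apoe (0.618) and Cd63 (0.599). Per1 was closest to Grasp (0.693), Smarcd1 (0.650) and Fgf16 (0.625), and Sgk1 to Gorasp2 (0.665), Txnl4a (0.661) and Rab11b (0.660). Zbtb16 was closest to the presynaptic gene Rims1 (0.654), Ppp1r12a (0.646) and Gm8098 (0.635). Nr3c1 was closest to Arhgap5 (0.753), Gm35188 (0.743) and Sesn3 (0.718), and Nr3c2 to Zfp799 (0.619), Tubgcp5 (0.596) and 4930587E11Rik (0.595). None of the 10 genes was among the nearest 3 of another.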

How the data were processed

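The deposited values were counts, whole numbers of reads per gene. The authors trimmed paired reads with Trim Galore 0.6.6, aligned them to mm10 (GRCm38) with HISAT2 2.2.1, removed duplicate fragments with Picard and counted them on GENCODE genes with featureCounts 2.0.1 after NEBNext Ultra II RNA library preparation. The strand setting is not given in the sources used here. They tested with DESeq2 1.36.0 in R 4.2.1, and their tables of fold changes and p-values were used only to pair gene identifiers with symbols. Removal of duplicates without molecular identifiers can lower the counts of short, abundant genes such as Mt1 and Mt2.

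Groups were window, drug and sex label. Morphine was compared with saline in each window, by sex label and joined, in a fit over that window's 4 groups with edgeR 4.0.16 (R 4.3.3; TMM, filterByExpr with a minimum count of 10 and total of 15, quasi-likelihood test, two-sided, Benjamini-Hochberg over all genes tested, threshold 0.05). Windows were compared in a fit over all 12 groups. Genes were named if they were members, or among the 3 lowest adjusted p-values per list and comparison, and nearest neighbours were the 3 highest correlations. Members and lists were chosen with earlier results of these data known. Correlations used log2 CPM with a prior count of 2. Alternatives were DESeq2 1.42.0, its size factors, no filter, a GC and length correction (limma 3.58.1 for the ID number as a random effect), a replicate block, and leaving out libraries or ID numbers. Scripts were tested on simulated data. GC content and length matched 55141 of 55401 identifiers. No 2 replicates agreed within sampling noise (183 pairs, chi-square per degree of freedom 1.64 to 57.5).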

Additional observations from a re-analysis of the deposited data

Results flagged for a closer look

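Of 120 sets of 4 to 7 libraries (a gene in a group), 8 held a library far from the others by Dixon's test at 95%, where chance gives about 1 in 20 sets, and 5 of the 8 came from the shallowest library of PND14 and that of 3-Tri. In 3-Tri saline male replicate 1, Nr3c2 stood at 35.1 CPM, Sgk1 at 38.7 and Mt2 at 7.53, each the lowest of its group, and Zbtb16 at 41.6, the highest. In PND14 morphine female replicate 4 Per1 stood at 112 CPM, above the other 5 libraries. The 3 others were the highest values of their groups in libraries of usual depth, Tsc22d3 at 48.2 CPM in PND1 morphine male replicate 5 and at 60.4 in 3-Tri morphine female replicate 10, and Mt1 at 79.0 in 3-Tri saline male replicate 3. The response to morphine differed between PND14 and PND1 by the test of the difference itself for Nr3c1 (log2 difference -0.22) and Nr3c2 (-0.18), and both lost that call after the correction for GC content and length.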

How the results depend on the processing

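No value that passed its test changed direction under any alternative: 133 of 162 kept direction and call, and 29 kept direction only. The 162 values cover 17 results, 10 of them the calls of saline PND14 against saline PND1, which kept their call in every alternative. All 29 losses of a call thus fell on the morphine results. The 5 pairs called over 72 libraries are not among the 17 results. At PND1 the male comparison (1 gene) gave 0 genes with the replicate block, alone or with the GC and length correction. Joined (1 gene), it gave 2 with DESeq2 (Nr3c2, Fkbp5), 3 with the block and the correction (Cdkn1a, Mt1, Mt2), 0 without libraries against their sex label plus the correction, and 0 to 2 when single libraries were left out (2 without saline female replicate 6). With the block alone the 1 gene was Mt1, and Fkbp5 had an edgeR adjusted p of 0.144. Replicate numbers do not pair the libraries by any source: same-numbered libraries correlated above 0.1 in 0 of 4 female and 1 of 3 male pairs at PND1, 1 and 2 of 6 at PND14, and 4 and 2 of 6 in 3-Tri, and not every library was closest to its own number. At PND14 males (0 genes) gave 2 with DESeq2, and the joined comparison (3 genes) gave 0 with counts summed per ID number, 1 with the block, 1, 1, 0 and 0 without ID numbers 4422, 4423, 4424 and 4425, and 1 to 3 without single libraries (1 without morphine male replicate 3). Morphine 3-Tri against PND14 (0 genes) gave 1 with DESeq2 and 0 to 1 without single libraries (1 without PND14 morphine female replicate 12). The response at PND14 against PND1 (2 genes) gave 0 with the GC and length correction, 1 without the filter, 1 without libraries against their sex label and 1 to 2 without single libraries. Of 45 pairs, 5 were called over 72 libraries, 8 at PND1 alone, 2 at PND14 alone and 1 in 3-Tri alone. With single PND14 and 3-Tri libraries taken as deviations from the mean of ID number and sex label, 1 was called. There were 8 without the 2 shallow libraries, 3 without the 2 farthest libraries and 9 by rho. The causes were not tested, though single windows hold fewer libraries. Over all genes, PND1 males went from 3124 calls to 1225 with the correction, 2066 with only the 2 groups and 224 with block and correction. PND1 joined went from 3653 to 1947 with the correction. PND14 joined went from 332 to 657 with DESeq2, 644 with the ID number as a random effect, 98 with the block, 9 with sums per ID number and 255, 97, 7 and 0 without each ID number in turn. Leaving out single ID numbers, the PND1 mismatch set with the correction, and rho were chosen after seeing the data. Depth limits 3-Tri saline male replicate 1, where Mt2 had 21 reads.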

Other observations

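At PND1, with the labels joined, 16.8% of all genes were called between the drugs. Of 15 clock genes other than Per1, 0 rose and 2 fell after morphine: Nr1d1, the repressor REV-ERB alpha (log2FC -0.23 ± 0.054, edgeR adjusted p = 0.00505), and Per3 (-0.23 ± 0.075, adjusted p = 0.0347), while Per1 itself was not called. Of 8 p53 target genes other than Cdkn1a, 1 rose and 3 fell, among them the pro-apoptotic Bbc3 (-0.44 ± 0.066, adjusted p = 0.000175) and Bax (-0.24 ± 0.050, adjusted p = 0.00184), with Mdm2, the p53 ubiquitin ligase, up (0.14 ± 0.042, adjusted p = 0.0232). At PND14, where Cdkn1a was higher after morphine and 1.69% of all genes were called, 1 of the 8 rose, Bbc3 (0.24 ± 0.056, adjusted p = 0.0298), and none fell. In 3-Tri 0 of the 8 and 0 of the 15 were called.

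Of 10 immediate early genes, 1 rose at PND1, Fos (0.56 ± 0.14, adjusted p = 0.00774), and 0 were called in the later windows with the labels joined. From saline PND1 to saline PND14, 13 of 15 clock genes rose and 2 fell (median log2FC 1.59), and 10 of 10 immediate early genes rose (median 2.79), where 84.9% of all genes were called.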
